A study of Mus musculus with 31 samples.

Results

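The mitosis and spindle genes are 40 genes chosen by symbol, with no measured value in the rule, and each symbol matched 1 row among the 55487, 56980 and 56941 gene rows of the conditioned media, 2D and 3D, and rescue count tables. They comprise the CDK1 engine that starts mitosis (Cdk1, Ccnb1, Ccnb2, Ccna2, Cdc25b, Cdc25c), the kinases Plk1 and Aurka, the chromosomal passenger complex (Aurkb, Birc5, Incenp, Cdca8), the spindle assembly checkpoint (Bub1, Bub1b, Mad2l1, Ttk) and the genes of anaphase onset (Cdc20, Espl1, Pttg1). The others encode parts of the centromere and outer kinetochore (Cenpa, Cenpe, Cenpf, Ndc80, Nuf2, Spc24, Spc25), spindle kinesins and microtubule proteins (Kif11, Kif2c, Kif4, Tpx2, Hmmr, Nusap1), the central spindle and cytokinesis apparatus (Kif20a, Kif23, Prc1, Anln, Ect2), chromosome proteins (Top2a, Mki67) and the transcription factor Foxm1. All 40 passed edgeR's filter on low counts in all 3 tables, so every count of them below is out of 40.

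RNA was sequenced from 31 libraries of Panc02, a mouse pancreatic adenocarcinoma cell line, in 11 groups of 2 or 3 libraries. WT spheroids in Matrigel received control medium (Ctrl) or medium conditioned by untreated (M0-CM) or IFNγ and LPS-treated (M1-CM) bone marrow-derived macrophages, with 3 libraries each. WT cells and cells labelled Cxcl5 knockout (Cxcl5-/-, made with CRISPR/Cas9 and puromycin selection) were grown in 2D or 3D, with 3 libraries each. In the rescue experiment, all in 3D, there were 2 WT and 2 Cxcl5-/- libraries, and 3 libraries each of Cxcl5-/- cells with retroviral overexpression of mutant Hif1a (Hif1aOE) or of Myc (MycOE). Whether the knockout line is 1 clone is not stated, the cell line names in the rescue labels carry a number that differs between samples, and nothing in the labels says that replicates came from separate cultures, so the p-values measure only the spread between these libraries. The sources describe the study as asking whether Cxcl5 is needed for growth in 3D and whether Hif1a or Myc can replace it.

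In dividing cells, cyclin A and cyclin B bind CDK1 and the CDC25 phosphatases activate it, Aurora and Polo kinases build the spindle, and kinetochore proteins attach chromosomes to microtubules. The checkpoint proteins hold back CDC20 until all chromosomes are attached. CDC20 then directs the destruction of securin (Pttg1), which frees separase (Espl1) to split the sister chromatids. Most of these genes are transcribed late in the cell cycle, through the MuvB complex with B-Myb or FOXM1, which act at promoters that carry a cell cycle genes homology region (CHR) and CCAAT boxes, and the same promoters are held silent in resting cells. In bulk RNA, fewer dividing cells and less RNA per cell cannot be told apart.

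Promoter sequences were read from RefSeq (GRCm38.p6) as 300 bases, from 250 before to 50 after the annotated start, and 32 of the 40 genes had one. Incenp, Foxm1, Aurkb, Tpx2, Kif20a, Cdc25c, Ccna2 and Spc24 had no entry in the table used. The promoters of Cdk1 (chr10:69352863-69353162, minus strand), Ccnb1 (chr13:100786437-100786736, minus strand), Cdc20 (chr4:118437294-118437593, minus strand) and Cdca8 (chr4:124936868-124937167, minus strand) are shown because the first pair stand for the CDK1 engine and the others rose the most in MycOE cells over WT. The promoter of Pttg1 (chr11:43425932-43426231, minus strand) is shown because its transcript moved apart from the rest. All are written 5′ to 3′ along the gene, and capitals mark CHR letters (TTTGAA or TTTAAA, or the reverse complement TTCAAA) and CCAAT boxes (CCAAT or the reverse complement ATTGG). In Cdca8 a CHR match and a CCAAT match share 1 base. The windows of Pttg1 and Cdca8 lie wholly inside the gene, since GENCODE M21 puts the 5′ ends of these genes at 43426251 and 124939311.
Cdk1: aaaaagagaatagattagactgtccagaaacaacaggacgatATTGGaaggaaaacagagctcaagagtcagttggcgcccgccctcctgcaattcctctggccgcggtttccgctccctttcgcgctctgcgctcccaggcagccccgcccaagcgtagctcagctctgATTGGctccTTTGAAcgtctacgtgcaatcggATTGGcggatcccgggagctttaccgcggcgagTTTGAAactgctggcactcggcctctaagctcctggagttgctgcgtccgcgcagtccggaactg
Ccnb1: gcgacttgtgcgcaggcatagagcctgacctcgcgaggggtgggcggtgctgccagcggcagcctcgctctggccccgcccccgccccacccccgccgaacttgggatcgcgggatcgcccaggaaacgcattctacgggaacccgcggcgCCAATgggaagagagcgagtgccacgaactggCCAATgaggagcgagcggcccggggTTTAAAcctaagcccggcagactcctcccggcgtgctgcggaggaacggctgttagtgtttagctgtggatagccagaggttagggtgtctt
Cdc20: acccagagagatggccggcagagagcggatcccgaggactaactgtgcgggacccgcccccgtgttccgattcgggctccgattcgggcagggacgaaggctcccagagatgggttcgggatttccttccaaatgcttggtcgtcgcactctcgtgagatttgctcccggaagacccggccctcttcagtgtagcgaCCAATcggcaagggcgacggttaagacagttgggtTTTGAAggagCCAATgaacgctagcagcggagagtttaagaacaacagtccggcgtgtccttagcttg
Cdca8: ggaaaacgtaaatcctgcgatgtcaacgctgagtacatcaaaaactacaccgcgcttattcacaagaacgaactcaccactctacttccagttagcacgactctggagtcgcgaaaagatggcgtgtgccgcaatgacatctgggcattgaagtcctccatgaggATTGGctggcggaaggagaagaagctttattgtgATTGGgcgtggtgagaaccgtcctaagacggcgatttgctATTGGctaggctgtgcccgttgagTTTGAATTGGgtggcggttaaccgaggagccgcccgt
Pttg1: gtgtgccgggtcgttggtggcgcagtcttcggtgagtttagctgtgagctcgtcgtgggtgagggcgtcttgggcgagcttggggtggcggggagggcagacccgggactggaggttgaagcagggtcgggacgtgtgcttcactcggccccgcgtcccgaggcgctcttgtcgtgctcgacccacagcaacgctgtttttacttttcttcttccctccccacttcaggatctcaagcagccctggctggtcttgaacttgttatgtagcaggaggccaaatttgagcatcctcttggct

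Only the first listed promoter of each gene symbol was counted. CHR letters stood in 26 of the 32 promoters (81.3%) and in 27.8% of the 27025 promoters of the same length, and a CCAAT box in 24 (75%) against 37.9%. Both were present in 22 of 32 (68.8%) against 10.9%, and 16 of 32 (50%) held 2 or more CCAAT boxes against 12.2%. With the base before the start counted as -1, the CHR letters of Ccnb1 began at -42 and its CCAAT boxes at -99 and -67. In Cdk1, CHR letters began at -71 and -15 and CCAAT boxes at -208, -80 and -48. Cdca8 held 4 CCAAT boxes and Top2a, the DNA topoisomerase of mitotic chromosomes, held 6. Neither motif was found in the windows of Pttg1, Mad2l1, Nuf2 or Nusap1. The windows of Pttg1, Cdca8, Kif2c and Kif4 lie wholly inside their GENCODE M21 genes. Bases upstream of the 5′ ends of those genes were thus not read. The window of Mad2l1 (chr6:66534971-66535270, plus strand) lies wholly upstream of its GENCODE M21 gene, which starts at 66535390. Bases at that start were not read either. A match is a description of these letters and not a measured binding site.

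Libraries held 41542533 to 78498230 counts, and every one of the 40 genes was at 4.13 CPM or more in each library, the lowest value being that of Spc24 in a rescue Cxcl5-/- library. CPM are counts scaled to a common library size, here after TMM scaling, which also allows for differences in RNA composition. Tests are edgeR quasi-likelihood tests with Benjamini-Hochberg adjustment over all genes tested, with a threshold of an adjusted p under 0.05. Cxcl5, the targeted gene, was lower in rescue Cxcl5-/- than rescue WT cells (36.6 and 40.2 against 64.2 and 67.7 CPM, log2 fold change of -0.78 with SE 0.14, adjusted p = 0.00107). In 2D the values were 37.4, 32.7 and 32.8 CPM in Cxcl5-/- and 45.6, 47.3 and 49.1 in WT, which do not overlap but missed the threshold (log2 fold change of -0.47 with SE 0.14, adjusted p = 0.0705). In the 3D libraries of the 2D and 3D table it was higher in the libraries labelled Cxcl5-/-, at 65.5, 40.9 and 45.4 CPM, than in 3D WT, at 28.5, 24.5 and 28.04 CPM (log2 fold change of 0.91 with SE 0.14, adjusted p = 1.73e-04). These are called the libraries labelled 3D Cxcl5-/-, or the labelled 3D knockout, throughout, and the latter is always set against 3D WT. In the libraries labelled 3D Cxcl5-/-, Hif1a was at 175, 140 and 163 CPM against 363, 336 and 407 in 3D WT. Myc was at 9.12, 11.4 and 10.7 CPM there against 34.1, 36.9 and 33.9 in 3D WT. The paper reports that loss of Cxcl5 blocked the rise of both transcripts in spheroids. The authors checked the knockout line by immunoblot for the CXCL5 protein. Whether the Cxcl5 transcript level reflects the edit was not tested. Hif1a was at 258, 296 and 243 CPM in Hif1aOE, above rescue Cxcl5-/- (144 and 133) and not above WT (304 and 324), while MycOE cells held 241, 271 and 262. Myc was at 548, 525 and 397 CPM in MycOE against 22.3 and 20.02 in rescue Cxcl5-/-.

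The rescue WT libraries stood apart, with 43037 and 43048 genes above 0 against 26886 to 31338 in the other rescue libraries. Over 20700 genes with at most 3 counts in every library of the 2D and 3D table, they held 3.57 and 3.61 counts per kilobase of exon, against 0.309 to 0.895 in the others. At that density, background made up a median of 0.595% and at most 3.36% (Espl1) of the counts of the 40 genes in WT, and at most 0.591% in the other groups. Epcam and Cdh1, which define epithelial cells, were at or below 0.609 CPM in all 31 libraries, while Krt8 was at 134 CPM or more and Vim at 544 or more. The macrophage markers Adgre1, Csf1r and Itgam were at or below 0.717 CPM throughout, and Ptprc at or below 1.92. Cd68 ranged from 0.919 to 11.2 CPM over the libraries and Lyz2 from 0.777 to 16.7. The 8 macrophage markers summed to 1.94 to 2.72 CPM in 2D WT, 6.04 to 7.87 in 2D Cxcl5-/-, 7.93 to 9.30 in 3D WT and 14.7 to 23.9 in the libraries labelled 3D Cxcl5-/-, and to 15.8 to 15.95 in rescue WT, 14.9 to 15.8 in rescue Cxcl5-/-, 20.4 to 26.4 in Hif1aOE and 16.6 to 24.2 in MycOE. The 8 epithelial and ductal markers, mostly Krt8 and Krt18, summed to 855 to 1099 CPM in 3D WT and 223 to 240.1 in the libraries labelled 3D Cxcl5-/-, and to 861 to 907 in rescue WT, 294 to 310.1 in rescue Cxcl5-/-, 709 to 841 in Hif1aOE and 271 to 315 in MycOE. The 6 fibroblast markers summed to 155 to 166 CPM in 3D WT and 395 to 452 in the libraries labelled 3D Cxcl5-/-, and to 74.9 to 79.3 in rescue WT, 458 to 464 in rescue Cxcl5-/-, 133 to 173 in Hif1aOE and 312 to 343 in MycOE, and Thy1 was below 1 CPM in every group. In 2D WT the epithelial and ductal markers summed to 549.5 to 594 CPM and the fibroblast markers to 169.8 to 184. In the WT spheroids of the conditioned media table, fibroblast markers summed to 457 to 554 CPM in Ctrl, 472 to 506 in M0-CM and 424 to 571 in M1-CM. Epithelial and ductal markers there summed to 277 to 477, 312 to 558 and 225 to 394 CPM in the same order. Those WT values lay nearer to the 3D knockout groups than to the other 3D WT groups. The 4 mesenchymal markers summed to 3868 to 4016 CPM in 2D WT, 6446 to 7281 in 3D WT and 6421 to 9336 in the libraries labelled 3D Cxcl5-/-, and to 7829 to 7965 in rescue WT, 12926 to 12960.5 in rescue Cxcl5-/-, 5168 to 6800.5 in Hif1aOE and 3029 to 3446 in MycOE. The part of these differences in the results on the 40 genes was not tested.

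**Figure D1:**
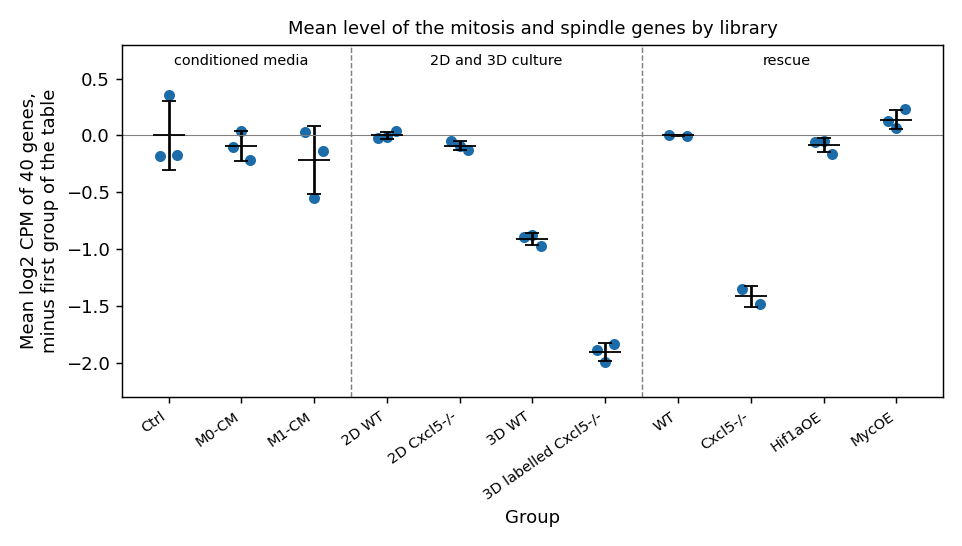
Mean log2 CPM of the 40 genes in each library (points), minus the mean of the first group of its table (Ctrl, 2D WT or rescue WT), with the mean and SD of each group. The 3 libraries labelled 3D Cxcl5-/- lie lowest, between -1.99 and -1.84, and the conditioned media groups overlap.

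The mean of log2 CPM over the 40 genes ordered the libraries by culture and genotype, as the plot by library shows. Relative to 2D WT, it was -0.09 ± 0.04 (SD, n = 3) in 2D Cxcl5-/- cells, -0.91 ± 0.05 (SD, n = 3) in 3D WT and -1.91 ± 0.08 (SD, n = 3) in the libraries labelled 3D Cxcl5-/-. Relative to rescue WT, it was -1.42 ± 0.09 (SD, n = 2) in Cxcl5-/-, -0.09 ± 0.06 (SD, n = 3) in Hif1aOE and 0.14 ± 0.08 (SD, n = 3) in MycOE cells.

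In WT cells, 39 of the 40 genes were lower and 1, Pttg1, was higher in 3D than in 2D, where 22% of all 21367 genes tested were lower and 22.2% higher. The median log2 fold change of the 40 was -0.95, against 0.00 over all genes. Cdk1, the kinase that drives mitotic entry, was at 255, 247 and 269 CPM in 2D and 130.2, 122 and 119.6 in 3D (log2 fold change of -1.05 with SE 0.11, adjusted p = 5.01e-06). Ccnb1, its cyclin B1 partner, was at 334, 342 and 341 in 2D and 136, 148 and 126 in 3D (log2 fold change of -1.31 with SE 0.10, adjusted p = 1.52e-07). In both, every 3D library lay below every 2D library, and the fitted decrease was 2.07-fold for Cdk1 and 2.48-fold for Ccnb1.

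Of the 40 genes, those with the lowest values in 3D against 2D were Ndc80, Bub1b and Kif4. Ndc80, the microtubule-binding core of the outer kinetochore, had CPM of 102, 102 and 105 in 2D and 37.5, 38.1 and 28.1 in 3D (log2 fold change of -1.58 with SE 0.11, adjusted p = 1.07e-07). Bub1b, which encodes the checkpoint kinase-like protein BUBR1, fell from 236, 209 and 250.5 to 93.5, 101.2 and 80.9 (log2 fold change of -1.34 with SE 0.12, adjusted p = 6.79e-07). Kif4, a chromokinesin, fell from 202, 202 and 217 to 83.7, 89.5 and 76.7 (log2 fold change of -1.31 with SE 0.08, adjusted p = 3.87e-08). None of these groups overlapped, and the log2 fold changes of Bub1, Tpx2, Hmmr, Ttk and Aurka lay between -1.30 and -1.21. Among the passenger complex, Incenp, its scaffold, fell by 1.21 on the log2 scale, Cdca8 (borealin) by 0.93, Birc5 (survivin) by 0.88 and the kinase Aurkb by 0.63, with Aurkb at 93.9, 82.9 and 96.9 CPM in 2D and 62.4, 52.3 and 61.6 in 3D.

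The smallest decreases were those of Anln, an actin-binding scaffold of the cytokinetic furrow (599, 631 and 641 CPM in 2D and 496, 458 and 506 in 3D, log2 fold change -0.36), of Ccnb2 (-0.37) and of Cenpa, the histone H3 variant of centromeres (-0.54). Foxm1, the transcription factor, was at 51.4, 59.4 and 48.6 CPM in 2D and 37.97, 34.5 and 36.3 in 3D (log2 fold change of -0.55 with SE 0.14, adjusted p = 0.00684). Mki67, which coats mitotic chromosomes, was at 799, 924 and 787 CPM in 2D and 388, 477 and 399.8 in 3D (log2 fold change of -0.99 with SE 0.11, adjusted p = 9.84e-06). Both were lower in every 3D library, and the Mki67 groups lay farther apart than those of Foxm1. The Foxm1 gene overlaps 2 other coding genes on the same strand, so reads in the overlap may be split between them.

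Pttg1 (chr11:43420250-43426251, minus strand, GRCm38), which encodes securin, was the 1 gene that rose. Its CPM was 12, 12.8 and 12.5 in 2D WT and 19.7, 16.7 and 17.8 in 3D WT (log2 fold change of 0.54 with SE 0.16, adjusted p = 0.0155), with no overlap. The call was lost without 3D WT replicate 1 and with library totals in place of TMM. Per kilobase of exon, Pttg1 had the lowest level of the 40 genes in 2D WT (6.21 CPM per kilobase) and Top2a the highest (136 CPM per kilobase).

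**Figure D2:**
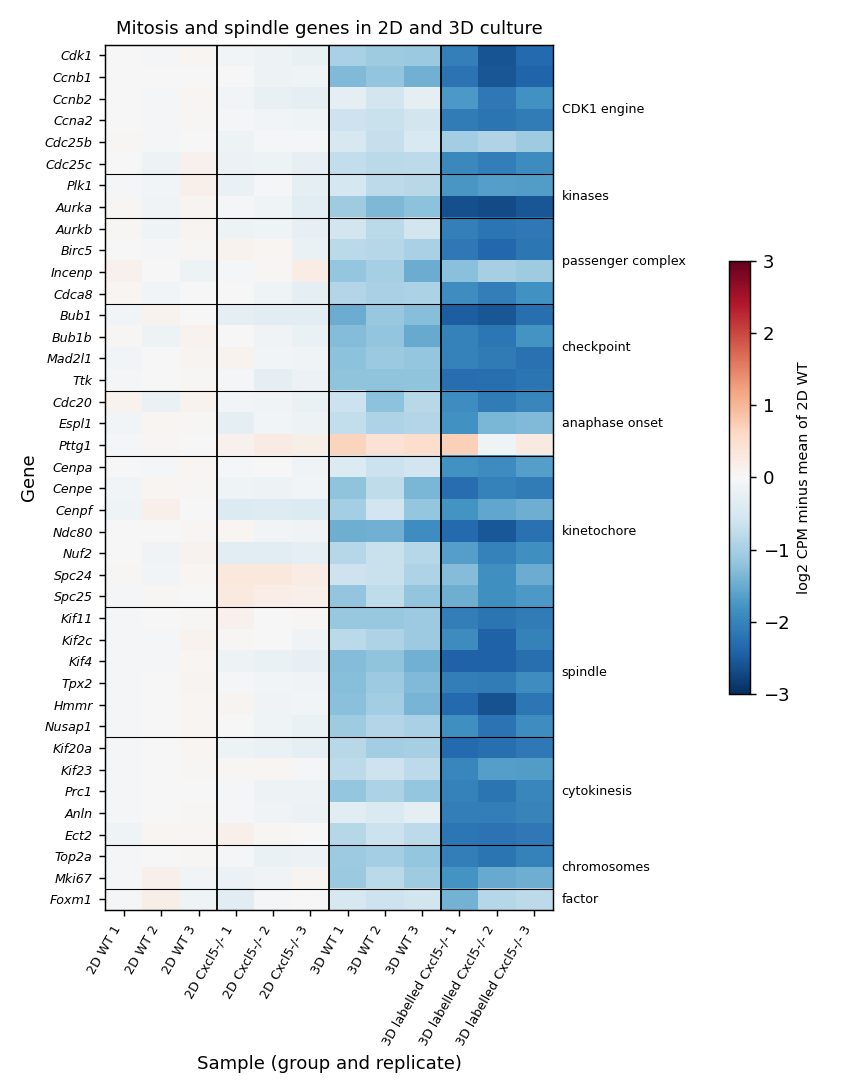
Heat map of log2 CPM minus the 2D WT mean for the 40 genes (rows, grouped by role) in the 12 libraries of the 2D and 3D table (columns). The 2D libraries stay near 0, the 3D WT columns are blue in all rows but Pttg1, and the columns labelled 3D Cxcl5-/- are darker in most rows, with Incenp and Pttg1 as the rows that are not.

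In 2D, the test called no difference between Cxcl5-/- and WT cells in the 40 genes, where 7.03% of all genes were called in either direction. The smallest adjusted p was 0.0777, the median log2 fold change was -0.11 and 33 of the 40 values were negative. At an unadjusted p under 0.05, 1 of the 40 genes was higher and 7 were lower in edgeR, beside 2012 higher and 1892 lower of all 21367 genes tested. DESeq2 called 3 lower at its adjusted threshold (Bub1, Cenpf and Nuf2), and the share of all genes it called is not given. Cdk1 was at 242, 229 and 219 CPM in 2D Cxcl5-/- cells (log2 fold change of -0.16 with SE 0.11, adjusted p = 0.537). Ccnb1 was at 343, 306 and 312 (log2 fold change of -0.08 with SE 0.10, adjusted p = 0.762). Aurkb, Mki67 and Foxm1 had log2 fold changes of -0.18, -0.06 and -0.13, none past the threshold. Cenpf, a large kinetochore protein, had the lowest value (239, 243 and 242 against 293, 353 and 314 CPM, log2 fold change of -0.41 with SE 0.14, adjusted p = 0.102), and Spc24, a subunit of the NDC80 complex, the highest (0.29).

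Of the 40 genes, 38 fell between 3D WT and the libraries labelled 3D Cxcl5-/-, where 25.3% of all genes were lower. Their median log2 fold change was -1.03, against -0.04 over all genes. With library totals in place of TMM the median over all genes moved from -0.04 to 0.35. Relative to that median the 40 genes stood at -0.99 in both. A change of scaling shifts all genes by nearly the same amount, so the equal values are not a separate check. The difference for Cdk1 was from 130.2, 122 and 119.6 CPM in 3D WT to 62.3, 42.8 and 51.3 (log2 fold change of -1.25 with SE 0.11, adjusted p = 1.42e-06), and for Ccnb1 from 136, 148 and 126 to 72.5, 57.4 and 64.1 (log2 fold change of -1.08 with SE 0.10, adjusted p = 1.16e-06). All 3 labelled knockout libraries lay below all 3 WT libraries in each of the 38 genes, and the share of all genes of which this is true was not counted. Summed fibroblast markers were higher and summed epithelial markers lower in the same libraries, as given above.

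Anln, Ccnb2, Ccna2 and Aurkb had the lowest of the 40 values in the labelled knockout against 3D WT. Anln fell from 496, 458 and 506 to 148, 149 and 154 CPM (log2 fold change of -1.70 with SE 0.08, adjusted p = 2.93e-09). Ccnb2, cyclin B2, fell from 65.2, 54.6 and 64.99 to 23.97, 17.9 and 22.7 (log2 fold change of -1.52 with SE 0.11, adjusted p = 1.53e-07). Ccna2, cyclin A2, fell from 242, 232 and 252 to 86.3, 80.9 and 86.4 (log2 fold change of -1.52 with SE 0.07, adjusted p = 4.73e-09). The Anln groups were thus 3.24-fold apart in the fit, and the 2D and 3D WT groups 1.28-fold. Both comparisons use the same 3D WT libraries, so a high 3D WT value enters one as a small decrease and the other as a large one. Aurkb fell from 62.4, 52.3 and 61.6 to 22.1, 19.8 and 20.7 (log2 fold change of -1.50 with SE 0.09, adjusted p = 3.30e-08), Aurka, the spindle pole kinase, by 1.42 on the log2 scale, Ect2, the exchange factor that switches on RhoA at the furrow, by 1.41 and Kif20a, a central spindle kinesin, by 1.28.

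The smallest decreases that passed were those of Foxm1 (37.97, 34.5 and 36.3 CPM in 3D WT and 19.8, 29.4 and 30.6 in the libraries labelled 3D Cxcl5-/-, log2 fold change of -0.45 with SE 0.15, adjusted p = 0.0227), Cdc25b (-0.46), Mki67 (388, 477 and 399.8 CPM in 3D WT and 242, 294 and 300.5 in the labelled knockout, log2 fold change of -0.60 with SE 0.11, adjusted p = 8.03e-04) and Spc25 (-0.63). Incenp and Pttg1 did not pass. Incenp (chr19:9872296-9899551, minus strand, GRCm38) was at 37.96, 42.4 and 30.1 CPM in 3D WT and 35.7, 42.7 and 40.8 in the libraries labelled 3D Cxcl5-/-, which overlap (log2 fold change of 0.11 with SE 0.12, adjusted p = 0.499). It was called higher with library totals in place of TMM. Pttg1 was at 20.5, 11.4 and 14.96 CPM in the labelled knockout libraries (log2 fold change of -0.21 with SE 0.16, adjusted p = 0.316). Thus 3 of the 4 passenger complex genes and 2 of the 3 genes of anaphase onset were lower, as were all genes of the CDK1 engine, the checkpoint, the kinetochore, the spindle and cytokinesis roles.

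**Figure D3:**
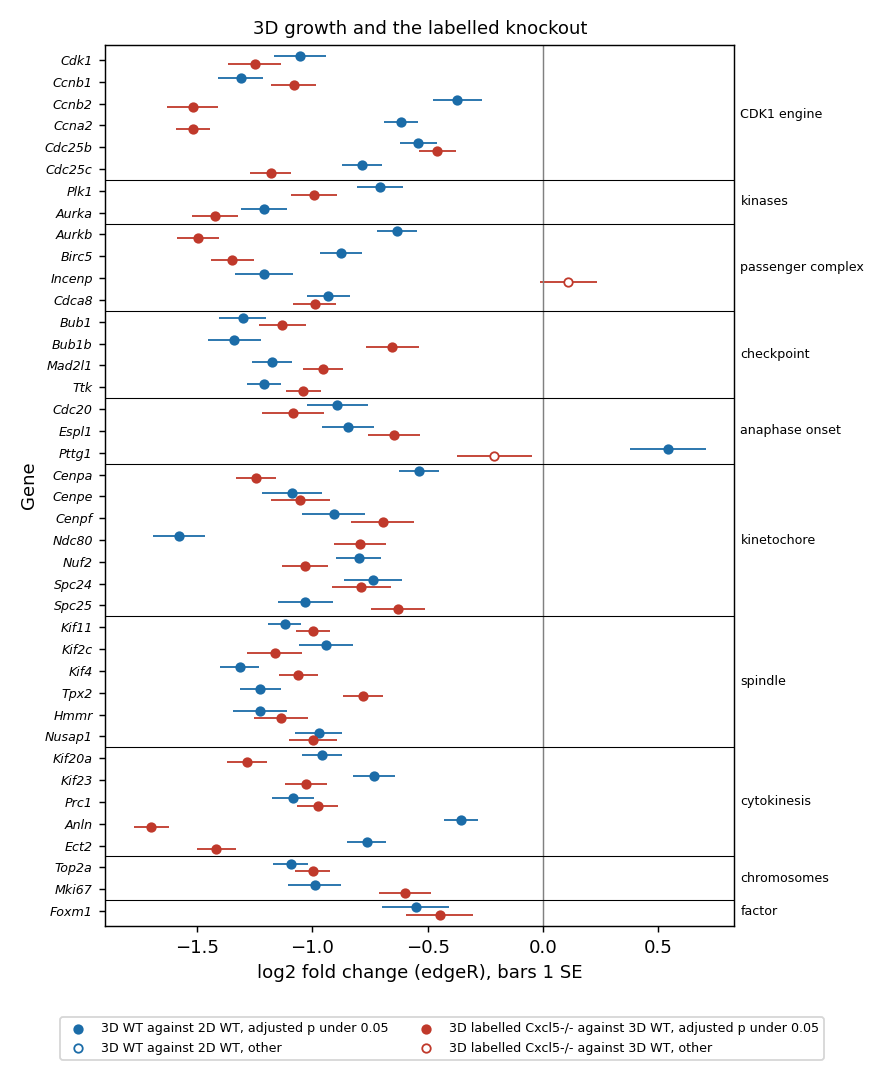
Fitted log2 fold change of each of the 40 genes (x axis, bars 1 SE) in 3D WT against 2D WT (blue) and in the libraries labelled 3D Cxcl5-/- against 3D WT (red), with filled points where the adjusted p was under 0.05. Blue runs from -1.58 (Ndc80) to 0.54 (Pttg1) and red from -1.70 (Anln) to 0.11 (Incenp).

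The difference between the genotype differences in 3D and in 2D was tested as an interaction, and 36 of the 40 genes had a lower value in 3D, where 16.1% of all genes did. The median was -0.91, against -0.05 over all genes. The interaction value of Cdk1 was -1.09 (SE 0.16, adjusted p = 2.66e-04), that of Ccnb1 -0.998, that of Aurkb -1.32 and that of Mki67 -0.54. Anln (-1.59), Ect2 (-1.48), Ccna2 (-1.43) and Birc5 (-1.33) had the lowest values. Foxm1 (-0.32, adjusted p = 0.279), Cenpf (-0.29), Pttg1 (-0.40) and Incenp (0.04) did not pass.

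Between the knockout groups of the same table, 39 of the 40 genes fell from 2D Cxcl5-/- cells to the libraries labelled 3D Cxcl5-/-, where 28.2% of all genes were lower, with a median log2 fold change of -1.93 against 0.11 over all genes. Aurka had the lowest value, at 152, 144 and 124 CPM in 2D and 25.3, 24.4 and 26.2 in 3D (log2 fold change of -2.47 with SE 0.10, adjusted p = 6.84e-10). Hmmr, which binds hyaluronan and spindle microtubules, and Ndc80 had log2 fold changes of -2.33 and -2.32. Cdk1, Ccnb1, Aurkb and Mki67 stood at -2.14, -2.31, -1.95 and -1.53. The smallest decreases were those of Foxm1 (-0.87) and Cdc25b (-0.91), followed by Incenp (-1.17), Cenpf (-1.19) and Espl1 (-1.32). Pttg1 did not pass (log2 fold change of 0.14 with SE 0.16, adjusted p = 0.476). Between the same groups, summed fibroblast markers were at 171 to 184 CPM in 2D and 395 to 452 in 3D. Epithelial and ductal markers were at 452 to 487 CPM in 2D and 223 to 240.1 in 3D, and the 4 mesenchymal markers at 2529.7 to 2806 in 2D and 6421 to 9336 in 3D. The part of these in the result was not tested.

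In the separate rescue libraries, where Cxcl5 was lower in the knockout, 38 of the 40 genes fell between WT and Cxcl5-/- cells, where 24.3% of all 28730 genes tested were lower. The median log2 fold change was -1.54, against -0.30 over all genes. It was -1.69 against -0.07 after the estimated background was subtracted from every gene, a check chosen after seeing the data. Cdk1 was at 98.8 and 99.7 CPM in WT and 32.7 and 30.98 in Cxcl5-/- (log2 fold change of -1.64 with SE 0.16, adjusted p = 1.23e-05), and Ccnb1 at 93.1 and 95.3 in WT and 29.3 and 25.03 in Cxcl5-/- (log2 fold change of -1.79 with SE 0.12, adjusted p = 9.71e-07). Neither pair of groups overlapped. Fibroblast markers were higher and epithelial markers lower in these Cxcl5-/- libraries too. The WT spheroids of the conditioned media table had marker sums near those of the knockout, as given above.

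Ccnb2 had the lowest value, at 42.2 and 38.8 CPM in WT and 8.34 and 7.72 in Cxcl5-/- (log2 fold change of -2.33 with SE 0.13, adjusted p = 2.42e-07). The checkpoint kinase Bub1 fell from 73.3 and 72.2 to 19.5 and 16.1 (log2 fold change of -2.03 with SE 0.12, adjusted p = 3.60e-07). Birc5 fell from 66.5 and 61.3 to 15.9 and 16.3 (log2 fold change of -1.99 with SE 0.16, adjusted p = 4.12e-06). The groups lay at least 3.96-fold apart in the fit for these 3 genes, and Nuf2, a partner of Ndc80, followed with -1.98. Aurkb fell from 39.2 and 42.5 to 10.6 and 10.3 (log2 fold change of -1.97 with SE 0.10, adjusted p = 2.09e-07) and Anln by 1.89 on the log2 scale. The smallest decreases that passed were those of Incenp (-0.47), Espl1 (-0.51), Foxm1 (31.9 and 36.5 CPM in WT and 25.9 and 21.3 in Cxcl5-/-, log2 fold change of -0.54 with SE 0.13, adjusted p = 0.00761) and Mki67 (379 and 394 CPM in WT and 209.9 and 170.4 in Cxcl5-/-, log2 fold change of -1.02 with SE 0.16, adjusted p = 4.61e-04).

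Cdc25b, a phosphatase that activates CDK1, did not pass (48.98 and 46.1 CPM in WT and 42.6 and 39.3 in Cxcl5-/-, log2 fold change of -0.22 with SE 0.12, adjusted p = 0.158), nor did Pttg1 (13.1 and 13.4 CPM in WT and 18.6 and 17.3 in Cxcl5-/-, log2 fold change of 0.44 with SE 0.20, adjusted p = 0.0918). Both Pttg1 values in Cxcl5-/- lay above both in WT, and it was called higher under library totals, with only these groups in the fit and with the replicate number as a block. The labelled 3D knockout and the rescue knockout, each set against its own WT, share no library. Across the 40 genes their log2 fold changes had a Pearson r of 0.75 and a Spearman rho of 0.63, given as a description, since genes are not independent replicates.

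Overexpression of mutant Hif1a in Cxcl5-/- cells went with higher levels of 39 of the 40 genes over Cxcl5-/- alone, where 20.5% of all genes were higher, with a median log2 fold change of 1.37 against 0.16 over all genes. Cdk1 was at 104, 135 and 92.7 CPM in Hif1aOE (log2 fold change of 1.80 with SE 0.15, adjusted p = 4.77e-06) and Ccnb1 at 124, 111 and 98.3 (log2 fold change of 2.03 with SE 0.11, adjusted p = 4.16e-07). All 3 Hif1aOE libraries lay above both Cxcl5-/- libraries in these genes. Ccnb2 (33.4, 39.3 and 32.7 CPM, log2 fold change of 2.13 with SE 0.12, adjusted p = 4.08e-07) and Cdc20, the activator of the anaphase-promoting complex (17.7 and 19.6 CPM in Cxcl5-/- and 74.8, 79.5 and 73.7 in Hif1aOE, log2 fold change of 2.03 with SE 0.10, adjusted p = 1.34e-07), were with Ccnb1 and Aurka (1.97) the 4 genes that rose the most. The genes that rose the least were Foxm1 (0.56), Incenp (0.60), Tpx2 (0.77) and Espl1 (0.79), while Mki67 rose by 0.79 and Aurkb by 1.84. Cdc25b did not pass (0.14). Pttg1 was at 36.3, 39.3 and 26.96 CPM, above both Cxcl5-/- and WT libraries (log2 fold change of 0.93 with SE 0.18, adjusted p = 0.00198 against Cxcl5-/-).

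Myc overexpression in Cxcl5-/- cells went with higher levels of 37 of the 40 genes over Cxcl5-/- alone, where 21.6% of all genes were higher, with a median of 1.56 against 0.11 over all genes. Cdk1 was at 139, 124 and 117 CPM in MycOE (log2 fold change of 1.99 with SE 0.15, adjusted p = 1.75e-06) and Ccnb1 at 122, 114 and 123 (log2 fold change of 2.14 with SE 0.11, adjusted p = 2.13e-07). Cdc20 (chr4:118432901-118437352, minus strand, GRCm38) rose the most, to 149, 139 and 156 CPM (log2 fold change of 2.99 with SE 0.10, adjusted p = 1.48e-08). Cdca8 (chr4:124918465-124939311, minus strand, GRCm38) rose from 8.51 and 9.81 to 66.6, 58.8 and 73.2 (log2 fold change of 2.85 with SE 0.12, adjusted p = 4.17e-08), and Kif2c, the kinesin that takes apart microtubule ends at centromeres, from 10.5 and 10.1 to 61.5, 60.5 and 73.8 (log2 fold change of 2.66 with SE 0.12, adjusted p = 7.13e-08). Each of these MycOE groups lay above both Cxcl5-/- libraries with no overlap, and Ccnb2 followed with 2.37. Aurkb rose by 2.22 and Mki67 by 0.80, and the other small increases were those of Incenp (0.53), Cenpe, a kinetochore kinesin (0.88), and Anln (0.88). Foxm1 (27.3, 24.4 and 26.2 CPM, log2 fold change of 0.14 with SE 0.12, adjusted p = 0.38), Cdc25b (0.27) and Pttg1 (0.33) did not pass. Cdc20 and Cdca8 each overlap a coding gene on the other strand, and the strand setting of the authors' counting is not given in the sources used here.

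**Figure D4:**
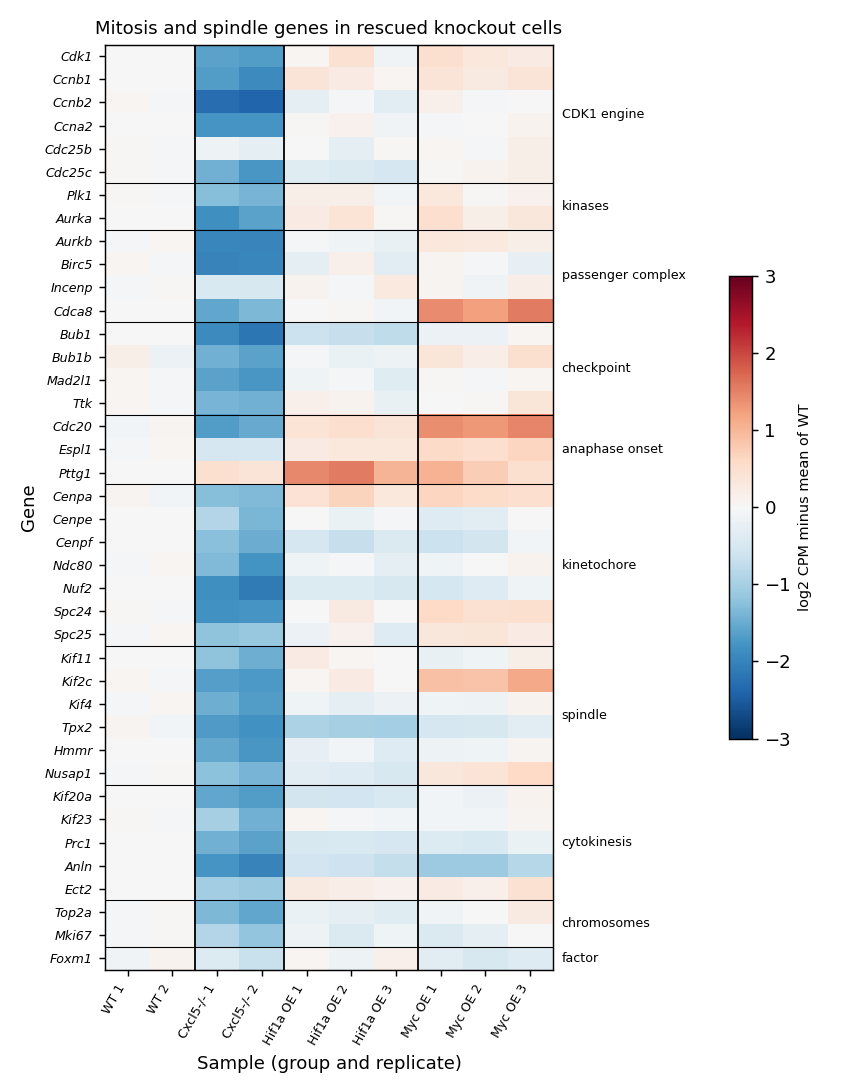
Heat map of log2 CPM minus the rescue WT mean for the 40 genes (rows, grouped by role) in the 10 rescue libraries (columns). The Cxcl5-/- columns are blue in most rows, the Hif1aOE columns lie near WT, and Cdca8, Cdc20 and Kif2c are red in the MycOE columns.

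Set against each other, the MycOE libraries had higher levels than the Hif1aOE libraries in 14 of the 40 genes and lower levels in 3, where 9.54% of all genes were higher and 9.73% lower, with a median of 0.14 against -0.01. Cdca8 was at 66.6, 58.8 and 73.2 CPM in MycOE and 25.2, 25.5 and 23.6 in Hif1aOE (log2 fold change of 1.42 with SE 0.09, adjusted p = 1.90e-06). Cdc20, Kif2c and Nusap1, which bundles spindle microtubules, had log2 fold changes of 0.96, 0.86 and 0.85. The 10 others that were higher ranged from 0.29 (Espl1) to 0.60 (Bub1) and included Aurkb (0.38), Tpx2 (0.55), Top2a (0.33) and Cdc25c (0.55). Pttg1 (log2 fold change of -0.59 with SE 0.16, adjusted p = 0.0221), Foxm1 (-0.42) and Anln (-0.37) were lower in MycOE. The Pttg1 groups overlapped, and no gene was called lower without Hif1aOE replicate 1 or without MycOE replicate 2. Cdk1 (0.20), Ccnb1 (0.11) and Mki67 (0.01) did not pass.

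Against WT cells, Hif1aOE Cxcl5-/- cells had 4 of the 40 genes higher and 9 lower, where 13.9% of all genes were higher and 10.3% lower, and the median was -0.10 in both. Pttg1 was 2.58-fold above WT (log2 fold change of 1.37 with SE 0.19, adjusted p = 5.14e-04), and Cenpa (0.47), Cdc20 (0.43) and Espl1 (0.29) were the others that were higher. Tpx2, which activates Aurora A on the spindle, was at 141 and 127 CPM in WT and 68.7, 67.2 and 65.8 in Hif1aOE (log2 fold change of -0.99 with SE 0.09, adjusted p = 2.55e-05), and Bub1 (-0.69), Anln (-0.64), Cenpf (-0.54), Kif20a (-0.53), Prc1 (-0.48), Cdc25c (-0.44), Nuf2 (-0.44) and Nusap1 (-0.40) were lower. Cdk1, Ccnb1, Aurkb, Mki67 and Foxm1 had values of 0.16, 0.24, -0.12, -0.23 and 0.02, none past the threshold. For other settings the shares of all genes are not given, so the counts cannot be set against them. The split was 2 higher and 16 lower with library totals, and 1 higher and 15 lower after background subtraction. With the DESeq2 Wald test the split was 3 higher and 15 lower, and the cause was not tested. Without WT replicate 1, and likewise without WT replicate 2, it was 2 higher and 5 lower.

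MycOE Cxcl5-/- cells had 12 genes higher and 5 lower than WT, where 17.1% of all genes were higher and 14.7% lower, with a median of 0.06 against -0.17 over all genes. Cdca8 was at 25.1 and 24.9 CPM in WT and 66.6, 58.8 and 73.2 in MycOE (log2 fold change of 1.41 with SE 0.11, adjusted p = 4.76e-06). For Cdc20, WT held 52.9 and 59.9 and MycOE 149, 139 and 156 (log2 fold change of 1.39 with SE 0.09, adjusted p = 1.60e-06). Kif2c was 1.96-fold above WT (log2 fold change of 0.97 with SE 0.11, adjusted p = 8.65e-05) and Pttg1 1.71-fold (log2 fold change of 0.77 with SE 0.18, adjusted p = 0.00915). Among the other higher genes were Espl1 (0.58), Cenpa (0.56), Spc24 (0.52), Nusap1 (0.46), Ccnb1 (0.34), Bub1b (0.34), Ect2 (0.30) and Aurkb (0.26).

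On the other side, Anln was at 154, 152 and 179 CPM in MycOE against 324 and 325 in WT (log2 fold change of -1.01 with SE 0.10, adjusted p = 2.66e-05). Foxm1 was at 27.3, 24.4 and 26.2 against 31.9 and 36.5 (log2 fold change of -0.40 with SE 0.12, adjusted p = 0.0269), and Tpx2 (-0.44), Prc1, which bundles the microtubules of the central spindle (-0.35), and Nuf2 (-0.34) were also lower. Cdk1 (0.35) and Mki67 (-0.22) did not pass. Here too the shares of all genes under other settings are not given. With library totals 5 genes were higher and 10 lower. With the DESeq2 Wald test, with DESeq2 size factors and after background subtraction, 8 were higher and 6 lower. Without WT replicate 1 there were 8 higher and 2 lower, without WT replicate 2 there were 7 and 2, and without MycOE replicate 2 there were 12 and 3.

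**Figure D5:**
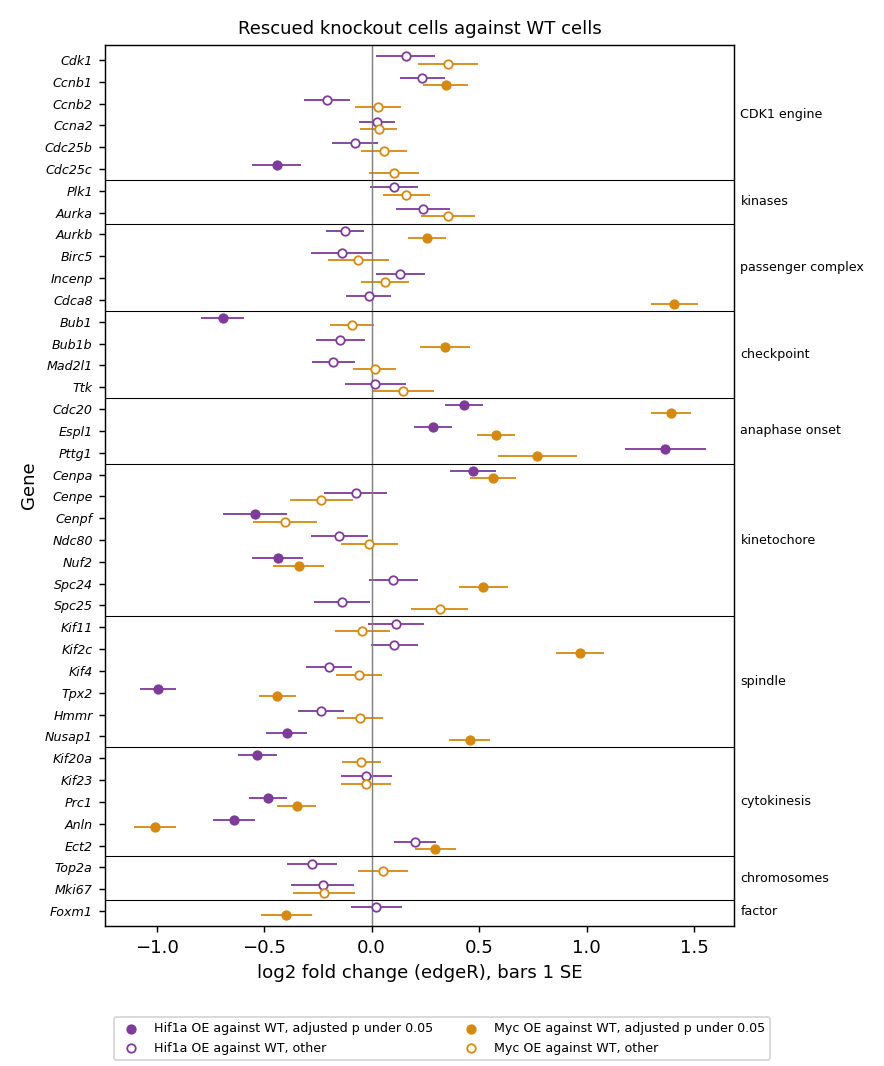
Fitted log2 fold change against rescue WT (x axis, bars 1 SE) of each of the 40 genes in Hif1aOE (purple) and MycOE (orange) Cxcl5-/- cells, with filled points where the adjusted p was under 0.05. Most points lie near 0, Cdca8 (1.41), Cdc20 (1.39) and Kif2c stand to the right in MycOE, Pttg1 (1.37) in Hif1aOE, and Anln and Tpx2 to the left in both.

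Macrophage-conditioned medium gave no called difference in the 40 genes. Of all 19207 genes tested, 0.0156% were called in either direction for M1-CM against Ctrl, 0.0% for M0-CM against Ctrl and 0.0156% for M1-CM against M0-CM. Cxcl5 was among those called in both M1-CM comparisons, at 663, 719 and 662 CPM in M1-CM and 78.1, 117 and 107 in Ctrl. The median log2 fold changes of the 40 genes were -0.24, -0.12 and -0.14, and the smallest adjusted p was 0.965 for M1-CM against Ctrl. At an unadjusted p under 0.05 in edgeR, 1 of the 40 genes was lower in M1-CM than Ctrl. Of all 19207 genes, 586 were higher and 317 lower there. None of the 40 passed in the other comparisons. Of all genes, 412 were higher and 157 lower in M0-CM against Ctrl, and 309 and 189 in M1-CM against M0-CM. DESeq2 called none of the 40. Cdk1 was at 86.1, 141 and 105 CPM in Ctrl, 103, 118 and 99.4 in M0-CM and 120.2, 58.2 and 111 in M1-CM (log2 fold change of -0.20 with SE 0.27, adjusted p = 0.965 for M1-CM against Ctrl). The groups overlapped, with Ctrl replicate 2 high and M1-CM replicate 2 low.

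Those libraries held the extremes of most of the 40 genes. Ctrl replicate 2 had the highest level of the 9 libraries in 35 of the 40 genes and M1-CM replicate 2 the lowest in 29. The share of all genes with their extremes in these libraries was not counted. Of the 9, Ctrl replicate 2 had the most counts (78498230) and the fewest genes above 0 (19448). M1-CM replicate 2 had the fewest counts (43875429). Ccnb1 was at 105, 183 and 120.01 in Ctrl and 129, 63.01 and 106 in M1-CM (log2 fold change of -0.45 with SE 0.28, adjusted p = 0.965), and Aurkb at 41.3, 65.4 and 45.4 in Ctrl and 53.8, 26.97 and 44.03 in M1-CM. Foxm1 went the other way in M1-CM replicate 2, at 35.4, 33.95 and 23.5 in Ctrl and 29.1, 65.4 and 32.6 in M1-CM (log2 fold change of 0.45 with SE 0.31, adjusted p = 0.965), and Mki67 was at 439, 421 and 302 in Ctrl and 391, 439 and 311 in M1-CM. Against Ctrl, the log2 fold changes in M0-CM were -0.05 for Cdk1, -0.13 for Ccnb1, -0.10 for Foxm1, -0.18 for Mki67 and -0.06 for Aurkb. In M1-CM against M0-CM they were -0.14, -0.32, 0.55, 0.16 and -0.22 in the same order. Without both libraries the median for M1-CM against Ctrl was 0.11 in place of -0.24, and for M0-CM against Ctrl 0.09 in place of -0.12. Without Ctrl replicate 2 alone the M1-CM median was -0.01, and without M1-CM replicate 2 alone it was -0.10.

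Other genes of the mitotic machinery were followed as lists, whose medians stand beside the all-gene medians given above for each comparison. Among 40 other mitotic genes, 39 were lower in 3D WT than 2D WT (median -0.89), 37 lower and 1 higher in the labelled 3D knockout (median -0.95), and all 40 lower in rescue Cxcl5-/- than WT (median -1.36). Of these, 39 were higher in Hif1aOE and 40 in MycOE than in Cxcl5-/- cells (medians 1.33 and 1.51). Ube2c and Cks2, a ubiquitin-conjugating enzyme and a CDK subunit, rose the most in both, by 2.15 and 2.11 in Hif1aOE and 2.30 and 2.45 in MycOE. Arhgap11a was the gene called higher in the libraries labelled 3D Cxcl5-/- (1.09, adjusted p = 2.48e-06), after the lowest value of the list in 3D WT against 2D WT (-1.77). Cdca3 (-1.65) and Pimreg (-1.56) were the lowest in the labelled knockout, and Ube2c (-2.27) and Ska1, a kinetochore subunit (-2.26), in the rescue knockout.

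Among the 15 genes of the constitutive centromere network, on which the kinetochore is built, 12 were lower in 3D WT than 2D WT, 14 in the labelled 3D knockout and 12 in rescue Cxcl5-/- than WT, with medians of -0.73, -0.70 and -1.12. They rose in Hif1aOE (13 of 15, median 1.07) and MycOE (14 of 15, median 1.23), with Cenpw highest in Hif1aOE (2.03) and Cenpm in MycOE (2.47). Of the 8 condensin genes, which compact chromosomes, 6, 8 and 7 were lower in the same 3 comparisons, with Ncapg at -1.32 in the labelled knockout and Ncaph at -1.74 in the rescue knockout, and 6 rose in Hif1aOE and 8 in MycOE. Of 20 centrosome and gamma-tubulin genes, 19, 13 and 12 were lower, and Plk4, the kinase of centriole duplication, was lowest in both knockout comparisons (-1.53 and -1.42). In both of these Cdk5rap2 was called higher (0.27 and 0.63), and it was lower in Hif1aOE and MycOE than in Cxcl5-/- cells (-0.60 and -0.58).

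For the anaphase-promoting complex and cohesin the counts stand beside the shares of all genes given above, and in the rescue knockout beside 24.3% of all genes lower and 5053 of 28730 higher. Of 15 genes of the complex, 8 were lower and 1, Cdc16, higher in 3D WT than 2D WT, 8 fell in the labelled 3D knockout, and 3 were lower and 2 (Anapc1 and Anapc2) higher in rescue Cxcl5-/-. Against Cxcl5-/- cells 9 rose in Hif1aOE and 10 in MycOE, and Anapc2 was lower in both (-0.95 and -0.89) and Anapc1 in Hif1aOE (-0.37). Of 12 cohesin genes, 7 were lower in 3D WT, 6 were lower and 2 higher in the labelled knockout, and 2 were lower and 4 higher in the rescue knockout. Wapl, which releases cohesin, and Nipbl, which loads it, were higher in both knockout comparisons (Wapl 0.55 and 0.98, Nipbl 0.40 and 0.73), and Esco2, the acetyltransferase of cohesion, was lowest in both (-1.08 and -1.65). Wapl and Nipbl were lower again in Hif1aOE (-0.94 and -0.87) and MycOE (-0.95 and -0.83) than in Cxcl5-/- cells.

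Of the 12 MuvB, B-Myb and pocket protein genes, 6 were lower and 1 higher in 3D WT than 2D WT, 9 fell in the labelled 3D knockout, and 5 were lower and 3 (Rbl2, Tfdp2 and Rbbp4) higher in rescue Cxcl5-/-. Mybl2, which encodes B-Myb, was at -1.56, -0.85 and -1.88 in these comparisons and rose by 1.80 in Hif1aOE and 1.79 in MycOE. Rbl2, the p130 pocket protein of resting cells, was higher in 3D WT (0.50) and in the rescue knockout (1.03), and lower in Hif1aOE (-0.55) and MycOE (-0.89) than in Cxcl5-/-. In the labelled knockout it did not pass (0.14).

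Among 10 other regulators of the cell cycle and of phosphatases, 8 were lower and Ensa higher in 3D WT, 6 fell in the labelled 3D knockout and 5 in the rescue knockout. Gmnn (geminin) and Fbxo5 (EMI1) were the lowest pair in both knockout comparisons, with Gmnn at -1.05 and -1.88 and Fbxo5 at -1.21 and -1.41. Replication genes, set beside the mitotic genes, were lower in 25 of 25 in 3D WT (median -1.08), 23 in the labelled knockout (median -0.72) and 21 in the rescue knockout (median -0.88, with Gins3 higher). They rose in 23 of 25 in both Hif1aOE and MycOE, with medians of 0.83 and 1.22. Fen1 (1.68) and Mcm5 (1.57) rose the most in Hif1aOE, and Mcm5 (2.12) and Rfc4 (1.97) in MycOE. Between 2D Cxcl5-/- and 2D WT, where 7.03% of all genes were called, 3 of the 40 other mitotic genes, 3 of the 25 replication genes and 1 of the 20 centrosome genes were called, each lower. No test compared these lists with the 40 genes.

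Some genes have close copies or neighbours. Ccnb1, Ccnb2 and Kif4 each have an annotated pseudogene, and Ccna2, Cdc25b, Cdc25c, Kif20a, Kif4, Nusap1 and Prc1 overlap a coding gene on the other strand, so reads of these may be shared. Kif11, the tetrameric spindle motor, Kif23, its central spindle relative, Spc25, Mad2l1, a checkpoint effector, Plk1, which acts from entry to cytokinesis, and Ttk, the checkpoint kinase MPS1, were lower in 3D WT than 2D WT and in both 3D knockout comparisons, with log2 fold changes in rescue Cxcl5-/- of -1.34, -1.20, -1.17, -1.68, -1.33 and -1.42.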

How the data were processed

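The authors prepared libraries with a stranded total RNA kit, aligned the reads with HISAT2 to mm10 (GRCm38) and deposited gene counts from StringTie, as raw counts that were not normalized; the annotation release and strand setting are not given in the sources used here. All sample columns were used. Samples were grouped by their titles, and each table was fitted separately. The 40 genes, the other lists and the comparisons were chosen with earlier results of these data known.

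The deposited counts were tested with edgeR 4.0.16 in R 4.3.3 (quasi-likelihood test, TMM, filterByExpr by group, 1 fit to all groups of each table, Benjamini-Hochberg adjustment over all genes tested, adjusted p under 0.05). The SE is the size of the log2 fold change over the square root of F. The fit was checked on simulated counts with 200 changed genes per table. Where 2 or more rows shared a symbol, the row with most counts was taken. Cdk1, Ccnb1, Foxm1, Mki67 and Aurkb are given in each comparison, with up to 4 highest and 4 lowest called genes whose groups did not overlap and every gene called against the majority, and for other lists up to 2 highest and 2 lowest. Alternatives were the Wald test of DESeq2 1.42.0, DESeq2 size factors, library totals, no filter, a minimum of 10 counts in each sample, a fit of the compared groups alone, the replicate number as a block, summed rows of a symbol and leaving out each sample. Background subtraction and leaving out both number 2 libraries of Ctrl and M1-CM were added after seeing the data. Positions and exon lengths are from GENCODE M21. Replicate pairs differed beyond sampling noise (chi-square per degree of freedom 9.37 to 332 in 29 pairs), so none was merged.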

Additional observations from a re-analysis of the deposited data

Results flagged for a closer look

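The genotype difference in 3D (libraries labelled 3D Cxcl5-/- minus 3D WT) was tested against that in 2D. In 36 of the 40 genes the difference was lower in 3D at an adjusted p under 0.05 in edgeR, where 16.1% of all genes were lower. Among the genes given in every comparison, the interaction was -1.09 for Cdk1, -0.998 for Ccnb1, -0.54 for Mki67 and -1.32 for Aurkb on the log2 scale. The lowest values were those of Anln (-1.59), Ect2 (-1.48), Ccna2 (-1.43) and Birc5 (-1.33). In these 8 genes every library labelled 3D Cxcl5-/- lay below every 3D WT library, and the share of all genes of which this is true was not counted. Groups held 2 or 3 libraries, so single libraries were not tested for lying apart.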

How the results depend on the processing

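The counts of called genes kept within 1.5 times of the reported ones under all alternatives for the decreases in 3D WT, in the libraries labelled 3D Cxcl5-/-, in their interaction and in the rescue knockout, and for the increases in Hif1aOE and MycOE over Cxcl5-/- cells. The lowest of these were with library totals, at 31 genes lower in the labelled 3D knockout and 26 in the interaction. The shares of all genes given above belong to the reported fit, and those under each alternative, which can differ, are not given. With library totals, no gene was called higher in 3D WT than 2D WT (0), 1 was higher in the labelled 3D knockout and 1 in rescue Cxcl5-/- than WT, against WT 2 were higher and 16 lower in Hif1aOE and 5 higher and 10 lower in MycOE, and the direction turned for Cdc25b in the interaction (0.0012), Ccnb2 (-0.26) and Aurkb (-0.038) in MycOE against WT. With only the groups compared, 1 gene was higher and 3 lower in 2D Cxcl5-/- than 2D WT and 1 higher in the rescue knockout. With the DESeq2 Wald test 3 were lower in 2D Cxcl5-/- and 15 in Hif1aOE against WT, with DESeq2 size factors 14 in the latter, and with at least 10 counts in every sample 15 in the latter and 8 in MycOE against WT, where no filter left 3. Background subtraction gave 1 higher and 15 lower in Hif1aOE against WT. The cause was not tested.

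Leaving out 1 library gave 0 to 1 higher and 38 to 39 lower in 3D WT, 0 to 1 lower in 2D Cxcl5-/-, 37 to 39 lower in the libraries labelled 3D Cxcl5-/- against 3D WT, 33 to 37 lower in the interaction, 36 to 38 lower in the rescue knockout, 38 to 39 higher in Hif1aOE and 37 to 38 in MycOE over Cxcl5-/-. Between MycOE and Hif1aOE it gave 10 to 15 higher and 0 to 3 lower, in Hif1aOE against WT 2 to 4 higher and 5 to 10 lower, and in MycOE against WT 7 to 14 higher and 2 to 6 lower.

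Whether replicate numbers pair the samples was not settled. Correlations of same-numbered deviations lay between -0.24 and 0.36. In the conditioned media table their mean was 0.037, against -0.019 for other numbers, and 6 of 9 samples correlated best with a sample of their own number. The latter held for 5 of 12 samples in the 2D and 3D table and 5 of 10 in the rescue table. With the replicate block 1 gene, Pttg1, was higher in the rescue knockout and 38 genes were higher in MycOE over Cxcl5-/-. Against WT, 3 were higher and 9 lower in Hif1aOE, and 14 higher and 6 lower in MycOE. The other counts were as reported. Genes with sums over symbol rows gave the reported counts. Groups of 2 or 3 libraries, the raised background of the rescue WT libraries and a Cxcl5 level that goes against the label in 3D limit what these counts can show.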
